A study of Mus musculus with 2 samples.

Results

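The genes described here were 46 actin regulators that shape the phagocytic cup, listed by gene symbol. No count entered that rule, but earlier results of these data were known when the genes were chosen. They comprised subunits of the Arp2/3 complex, Wave and Wasp proteins and their partners, the GTPases Cdc42 and Rhoa, cofilins and Lim kinases, profilins, 2 actins, Ena/Vasp proteins with cortactin, capping proteins with gelsolin, crosslinkers, myosins, tropomyosins and the ERM proteins. All 46 symbols were among the 22609 gene rows of the tables, and all 46 had at least 20 counts summed over the libraries, the minimum that left 12186 genes tested.

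A phagocyte engulfs its target by pushing a cup of membrane around it. Wave and Wasp proteins, switched on by Rac and Cdc42, activate the Arp2/3 complex, which starts new filaments as branches on existing ones and so builds the branched network of the rim. Profilin feeds actin monomers to growing ends, capping proteins stop them, cofilin and gelsolin cut old filaments, crosslinkers and tropomyosins set the architecture, myosins pull the cup closed and ERM proteins tie the filaments to the membrane. Sertoli cells, the somatic cells that nurse germ cells in the seminiferous tubule, clear most of the germ cells that die during spermatogenesis in this way.

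The data came from TM4, an established line of mouse Sertoli cells grown in DMEM with FBS. The cells received either a miR-471-5p mimic or a scrambled RNA, and 48 h later RNA was recovered by immunoprecipitation (IP) with an antibody to Ago2, the protein that holds the miRNA and the mRNAs it pairs with. There was 1 library per condition, so a difference between them had no replicate check, no p-value was computed, and the intervals given are exact 95% counting intervals that cover the sampling of reads only. No library of RNA before the pull-down was used here, so a change in the amount of an mRNA and a change in its association with Ago2 cannot be told apart, nor can fewer cells and less RNA per cell.

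The tables held 18628310 reads on genes for the mimic and 18717225 for the scramble library, so 3 counts, the most that a listed 0 allows, equalled 0.161 and 0.160 counts per 1000000 reads (CPM). Of 14 Sertoli cell markers 13 were in the tables and 8 had at least 20 counts. Sox9 had 1228 counts in the mimic and 1070 in the scramble library, and Kitl had 12245 and 16163, whereas Fshr was at 0 in both and Amh had 5 in each. The summed level of the Sertoli markers was 7301 CPM in the mimic and 5438 CPM in the scramble library, most of it Vim. Markers of Leydig cells, germ cells and macrophages summed to between 1.39 and 7.18 CPM, with Lhcgr, Emr1 and Ptprc at 0 in both. The 4 peritubular myoid markers summed to 3914 and 5453 CPM, nearly all of it Acta2, whose filaments the proteins described here also regulate, while Myh11 and Des had 6 and 7 counts in each library. The part of these marker levels in the results was not tested.

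The sequences on which a direct pairing with the mimic would rest were located first. miR-471-5p is a 22-base miRNA from chrX:66792634-66792655, minus strand of GRCm38.p6 (RefSeq), shown with its seed, bases 2 to 8, in capitals.

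miR-471-5p: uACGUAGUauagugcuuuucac

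For each gene, the longest annotated coding region and the longest 3′-UTR (GENCODE M21, GRCm38) were searched for ACTACGT, the 7mer-m8 letters that pair with the seed, for CTACGT (6mer), for CTACGTA (7mer-A1) and for ACTACGTA (8mer), on the transcribed strand only. A 6mer lies within each of the longer matches, and an 8mer also holds both 7mers. The stretches below are 3 of the matches found in the 46 genes, written 5′ to 3′ on the transcript, with the matching letters in capitals.

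Nckap1, 7mer-m8, coding region: gcagaggtACTACGTgcaatacct

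Pfn2, 6mer, coding region: ttggcagagCTACGTggataacct

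Enah, 6mer, 3′-UTR: tagtcccagCTACGTcagctgtgt

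The Nckap1 match began at base 1304 of the 3405-base coding region, at chr2:80538153-80538159 on the minus strand, in exon 14 of 32. In Pfn2 the letters began at base 18 of the 423-base coding region, in exon 1 of 3, at chr3:57847460-57847465, minus strand. In Enah they were in the last exon, 14 of 14, at base 7183 of the longest 3′-UTR of 9476 bases, at chr1:181898672-181898677, minus strand. Among all 186 annotated coding transcripts of the 46 genes, Nckap1 alone held a 7mer-m8 match.

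The 7mer-m8 and 6mer matches were in a smaller share of the 46 than of all tested genes, on counts of 0 to 3 genes. A 7mer-m8 match was in the coding region of 4.35% of 11764 tested genes, which is 512 genes, and in 1 of the 46. In 3′-UTRs the 7mer-m8 was in 1.56% of 11748 tested genes and in 0 of the 46. The 6mer was in the coding region of 16.3% of tested genes and 3 of the 46, and in the 3′-UTR of 6.77% and 1 of the 46. The 512 genes with a coding 7mer-m8 had a median log2 ratio of mimic to scramble of -0.03, and 11 of them, Nckap1 included, lay at or below the value of Nckap1. A match is a description of letters, and its absence says only that these letters were not in the regions searched.

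The cup genes as a whole took about the same share of both libraries. They held 337926 reads, or 1.81% (exact 95% interval 1.81 to 1.82) of reads on genes in the mimic library, and 345669 reads, or 1.85% (1.84 to 1.85), in the scramble library. Actb alone gave 24.5% of these reads in the mimic and 19.6% in the scramble library, and with Tpm4 and Tpm1 it gave 39.4% and 35.1%. The genes were well counted, with a median of 7137 counts over both libraries against 1277.5 over all tested genes.

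Levels per transcript length, which are TMM-scaled CPM divided by the length in kilobases (RPKM), spanned a wide range. Actb, the main cytoplasmic actin, was at 2311 RPKM in the mimic and 1892 RPKM in the scramble library. The next in the scramble library were the tropomyosins Tpm1 at 724 RPKM and Tpm4 at 723 RPKM, then Pfn1 at 532 RPKM and Cfl1 at 365 RPKM. At the low end were Actg1 at 7.35 RPKM, Capza1 at 6.91 RPKM, Ezr at 4.57 RPKM and Tpm3 at 1.15 RPKM. Most genes had a similar level in both libraries, as the plot of levels shows, and the exceptions are named below.

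**Figure D1:**
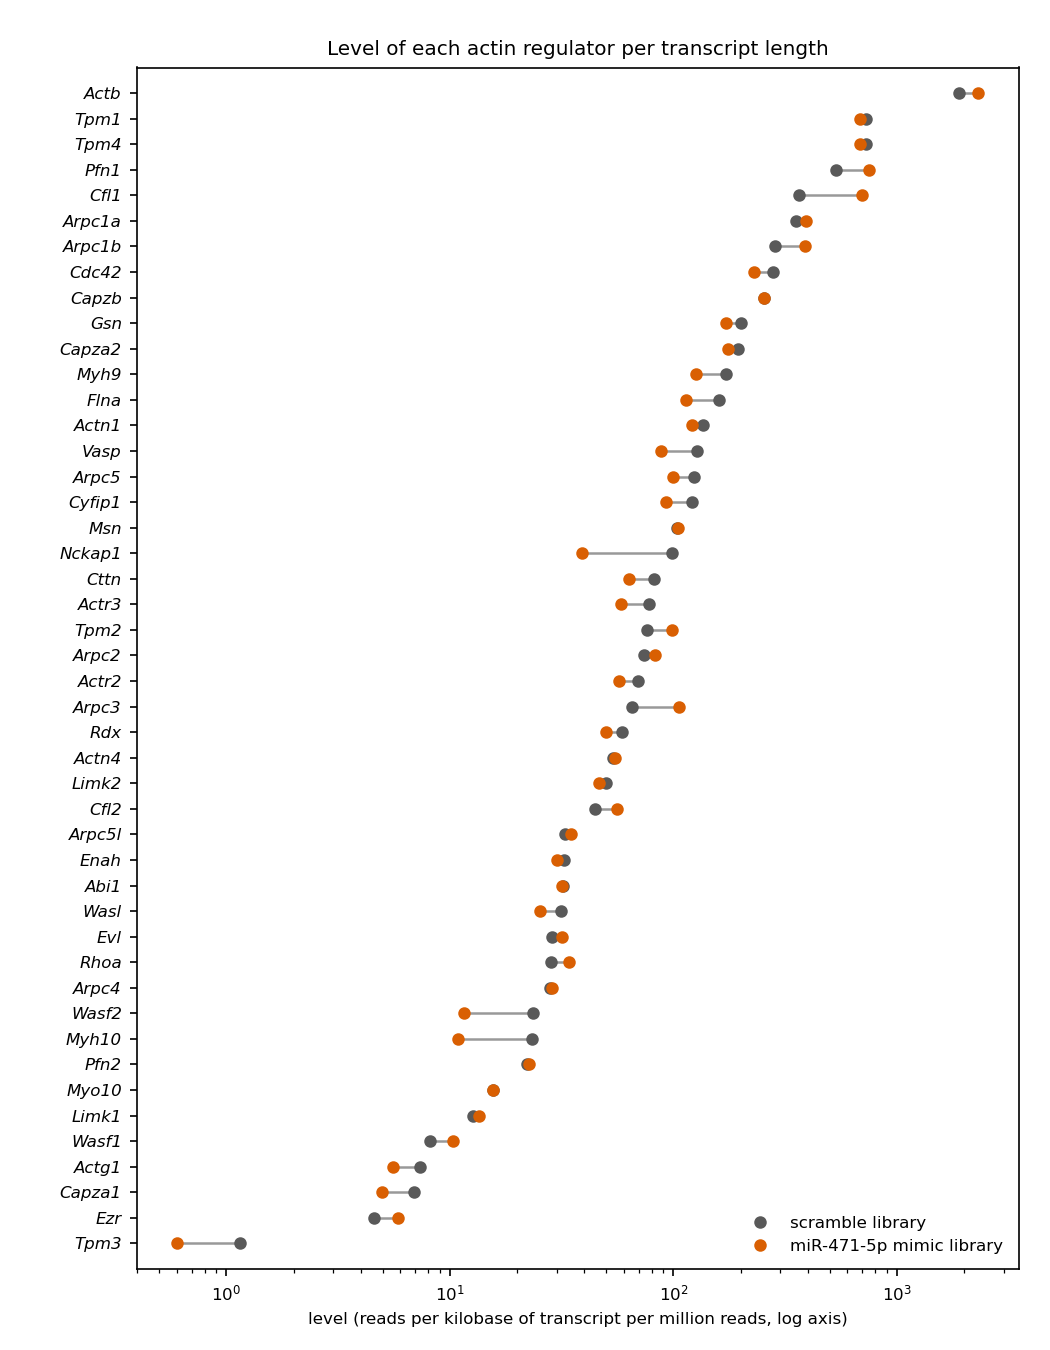
Level of each of the 46 genes in the scramble library (grey) and the miR-471-5p mimic library (orange), in RPKM on a log axis, ordered by the scramble level. Most dots lie close together, and the widest gaps are at Nckap1 (39.0 and 99.0 RPKM in mimic and scramble), Myh10, Wasf2, Tpm3 and, in the other direction, Cfl1 (697 and 365 RPKM).

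Most cup genes differed little between the libraries. A log2 ratio of at least 0.5 in the mimic direction, a 1.41-fold difference, was reached by 2 of the 46 (4.35%), Cfl1 and Arpc3, against 14.9% of all tested genes, and both came below 0.5 with the median of genes of like transcript length subtracted, as described below. A log2 ratio of -0.5 or below was reached by 5 (10.9%), Nckap1, Myh10, Wasf2, Tpm3 and Vasp, against 12.2% of all tested genes. At a log2 ratio of 1 the counts were 0 higher, against a background of 3.96%, and 3 lower, against 3.08%. The lower share was therefore close to the background at 0.5, and at 1 it was 3 genes, Nckap1, Myh10 and Wasf2. With the whole counting interval required to pass 0.5, Cfl1 and Arpc3 stayed on the higher side, against 6.72% of tested genes, and Nckap1, Myh10 and Wasf2 on the lower side, against 5.46%. Just inside the lower threshold was Vasp at -0.54 and just outside it Flna at -0.48, and just outside the upper threshold was Pfn1 at 0.49.

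The median log2 ratio of the 46 was -0.09, with 20 above 0 and 26 below, against a median of -0.00 over all tested genes. Their range, from -1.34 to 0.93, had 5th and 95th percentiles of -1.01 and 0.47, against -0.80 and 0.91 over all tested genes. The upper tail was thus shorter and the lower tail longer than the general one. These percentiles were not taken at like depth. The counting interval lay wholly below 0 for 24 of the 46 (52.2%) and wholly above it for 13 (28.3%), against 32.5% and 31.5% of all tested genes. Deeply counted genes have narrow intervals, and among the 6849 tested genes with at least 1000 counts the shares were 41.6% below and 35.3% above, with 21 of 41 cup genes (51.2%) below and 11 (26.8%) above. Past 0.5 in these well-counted genes were 2 of the 41 higher, against 9.91%, and 4 lower, against 9.21%.

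**Figure D2:**
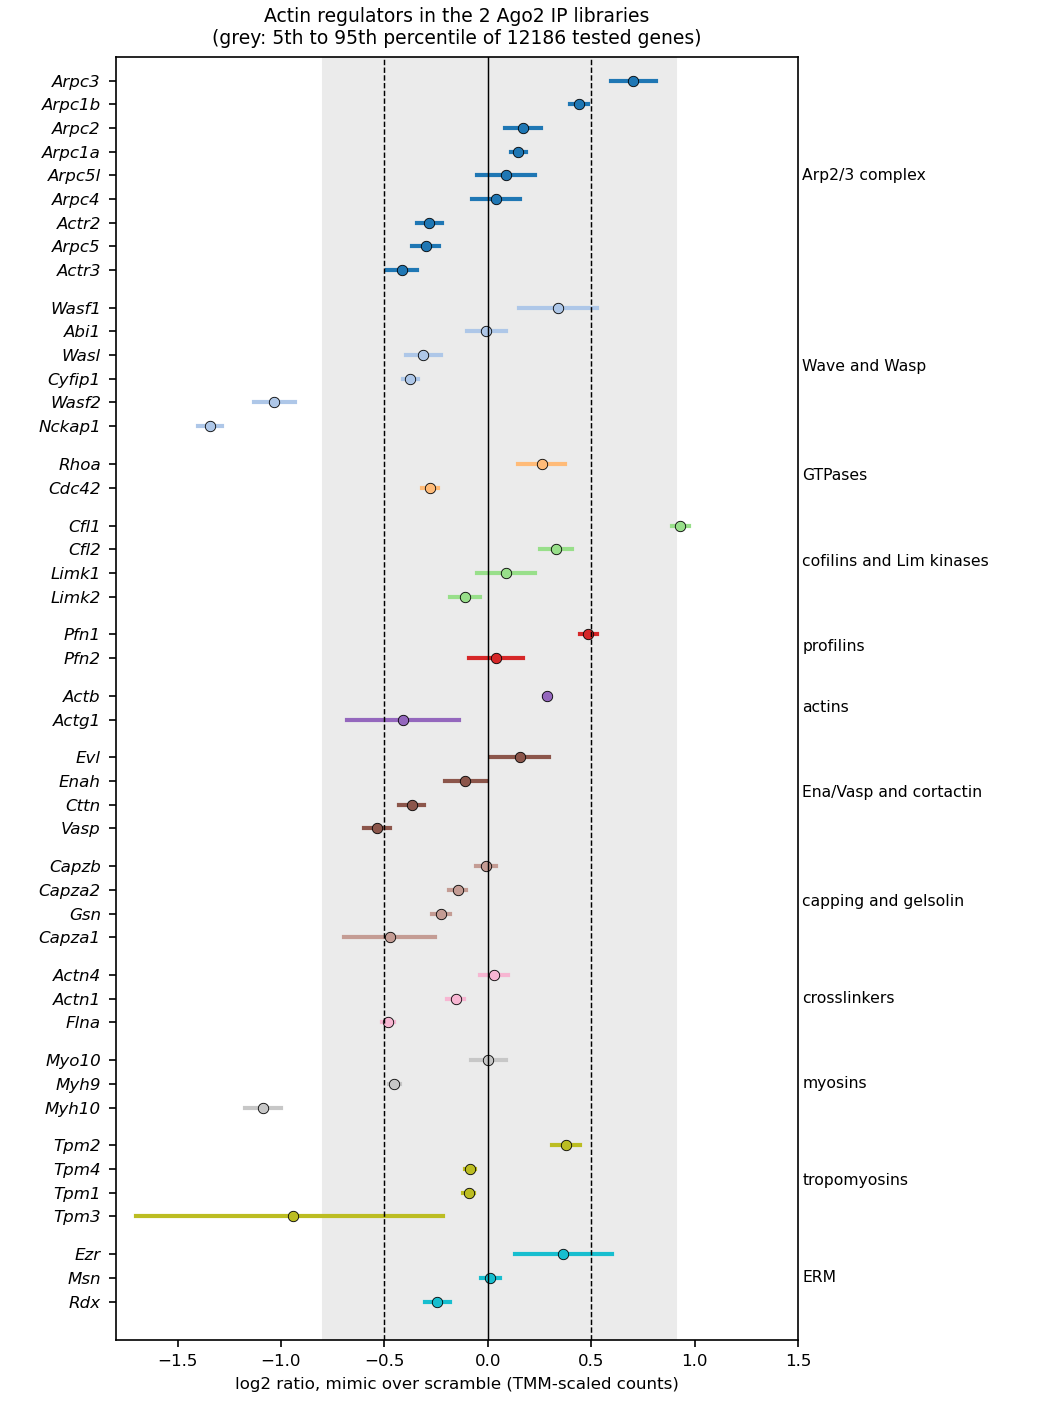
Log2 ratio of mimic to scramble for the 46 genes, grouped by role, with bars for the exact 95% counting interval, dashed lines at -0.5 and 0.5 and a grey band from the 5th to the 95th percentile of the 12186 tested genes. Nckap1, Myh10, Wasf2 and Tpm3 lie below the band, Cfl1 lies just above it, and the interval of Tpm3 runs from -1.70 to -0.22.

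In the Arp2/3 complex, the nucleator of branched filaments, the subunits were split. The summed counts of its 9 genes were 38273 in the mimic and 36027 with scramble, for a log2 ratio of 0.09 (0.07 to 0.11). Arpc3, one of the small subunits, had 1785 counts (95.6 CPM) in the mimic and 1095 counts (58.7 CPM) in the scramble library. It was 1.63-fold higher with mimic, a log2 ratio of 0.70 (0.60 to 0.81), at percentile 91.5 of tested genes. Arpc1b, one form of the WD-repeat subunit, had 10052 and 7406 counts and a log2 ratio of 0.44 (0.40 to 0.48), while its alternative form Arpc1a had 11897 and 10730 counts and 0.15 (0.11 to 0.19). Both actin-like subunits that form the seed of the new branch were lower. Actr2 had 3863 and 4696 counts, a log2 ratio of -0.28 (-0.34 to -0.22), and Actr3 had 2793 and 3723 counts, a log2 ratio of -0.42 (-0.49 to -0.34). Arpc5, a peripheral subunit, was also lower, with 3571 and 4397 counts and a log2 ratio of -0.30 (-0.36 to -0.24), and its alternative form Arpc5l had 870 and 818 counts and 0.09 (-0.05 to 0.23). The core subunits Arpc2 and Arpc4 were near or above 0, Arpc2 with 2226 and 1979 counts and 0.17 (0.08 to 0.26) and Arpc4 with 1216 and 1183 counts and 0.04 (-0.08 to 0.16). The log2 ratios of the subunits thus spanned -0.42 to 0.70. With the median of their length group subtracted, Arpc3 came to 0.27 and Arpc1b to 0.21, and Arpc1a, Arpc2, Arpc4 and Arpc5l came to -0.08, -0.06, -0.01 and -0.14. Actr3 was then at -0.46, Arpc5 at -0.41 and Actr2 at -0.17, and the median of the subunits was -0.08.

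The Wave and Wasp group, which switches Arp2/3 on, had the lowest summed ratio of the 12 role groups. Its 6 genes summed to 20147 counts in the mimic and 30263 in the scramble library, for a log2 ratio of -0.59 (-0.61 to -0.56). This rank rests on Nckap1, since the other genes of the group together lie above the myosins, whose summed log2 ratio was -0.47. The sum without Cyfip1, the most counted gene of the group, was -0.81 and still holds Nckap1. By the median of its genes the group was not the lowest, at -0.34 against -0.45 for the myosins. With the length group medians subtracted, that median was -0.17, against -0.24 for capping and gelsolin. Nckap1, also known as Nap1 and a core scaffold subunit of the Wave complex, had 3352 counts (179 CPM) in the mimic and 8494 counts (455 CPM) in the scramble library. That was 2.54-fold lower, a log2 ratio of -1.34 (-1.40 to -1.28), at percentile 1.49 of tested genes and the lowest of the 46. Nckap1 also bears the coding 7mer-m8 match printed above. The paper looked for targets among mRNAs that gained association with Ago2 under the mimic. It reported that these more often held seed matches and fell in overall level. Selected targets were followed there by western blots and 3′-UTR reporter assays. Nckap1 was lower in the mimic library, and its overall mRNA level was not measured here. Whether the match has a part in this ratio was not tested. Wasf2, the widely expressed Wave protein that binds Arp2/3 directly, had 1214 counts (65.0 CPM) in the mimic and 2481 counts (133 CPM) in the scramble library. It was 2.04-fold lower, a log2 ratio of -1.03 (-1.13 to -0.93), at percentile 2.82 of tested genes, and none of the letters searched was found in its longest coding region or 3′-UTR.

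The partners of Nckap1 and Wasf2 did not share values of that size. Cyfip1, the Wave subunit that receives active Rac, had 11176 and 14490 counts, a log2 ratio of -0.38 (-0.41 to -0.34). Abi1, the Abi adaptor of the complex, had 1819 and 1828 counts, a log2 ratio of -0.01 (-0.10 to 0.09). Wasl (N-Wasp), which answers to Cdc42 and not through the Wave complex, had 2060 and 2555 counts, a log2 ratio of -0.31 (-0.40 to -0.23). Wasf1, the Wave protein best known from neurons, ran in the other direction, with 526 counts (28.2 CPM) in the mimic and 415 counts (22.2 CPM) with scramble, for a log2 ratio of 0.34 (0.15 to 0.53). The difference between Wasf1 and Wasf2 was 1.37 (1.16 to 1.58) on the log2 scale, the widest of the 23 paralog differences computed on the ratios as measured. With the length group medians subtracted it was 1.15, below the 1.32 of Tpm2 minus Tpm3. Per transcript length, Wasf2 was above Wasf1 in the scramble library, at 23.6 and 8.18 RPKM, and in the mimic library they were at 11.5 and 10.4 RPKM.

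The GTPases that signal to these proteins differed little. Cdc42, which activates Wasl, had 9052 and 10980 counts, a log2 ratio of -0.28 (-0.32 to -0.24). Rhoa, which drives formins and myosin contraction, had 1396 and 1165 counts, a log2 ratio of 0.26 (0.15 to 0.37). Since Cdc42 held most of the reads, the summed log2 ratio of -0.22 lay close to that of Cdc42.

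Cofilin-1 was the highest of the 46. Cfl1, the main non-muscle cofilin, which severs filaments and recycles their monomers, had 14940 counts (799.9 CPM) in the mimic and 7829 counts (419 CPM) in the scramble library. It was 1.91-fold higher with mimic, a log2 ratio of 0.93 (0.89 to 0.97), at percentile 95.2 of tested genes. Cfl2, the muscle-type cofilin, had 3076 counts (165 CPM) and 2448 counts (131 CPM), a log2 ratio of 0.33 (0.25 to 0.41), so the cofilins differed by 0.60 (0.52 to 0.69). The Lim kinases, which inactivate cofilin by phosphorylation, were near 0, with Limk1 at 0.09 (-0.05 to 0.23) from 843 and 793 counts and Limk2 at -0.11 (-0.18 to -0.04) from 3035 and 3271 counts. The 4 genes together had a summed log2 ratio of 0.61 (0.58 to 0.64), and 0.09 without Cfl1.

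The main profilin and the main actin were also higher in the mimic library, by less than 0.5. Pfn1, the main profilin, had 11983 and 8550 counts, a log2 ratio of 0.49 (0.45 to 0.53), while Pfn2, which carries a coding 6mer, had 991 and 964 counts and a log2 ratio of 0.04 (-0.09 to 0.17). Actb had 82866 counts (4437 CPM) in the mimic and 67825 counts (3633 CPM) in the scramble library, which gave a log2 ratio of 0.29 (0.27 to 0.30). Actg1, the other cytoplasmic actin and normally an abundant mRNA, had 202 counts (10.8 CPM) and 268 counts (14.4 CPM), a log2 ratio of -0.41 (-0.68 to -0.14). The actins differed by 0.70 (0.43 to 0.96), and the low level of Actg1 stood beside the shared sequence described below.

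The Ena/Vasp proteins and cortactin had a summed log2 ratio of -0.36 (-0.39 to -0.32), with 1 of the 4 genes, Vasp, past -0.5 and Evl above 0. Vasp, which sits at filament tips and protects them from capping, had 3650 counts (195 CPM) in the mimic and 5290 counts (283 CPM) in the scramble library. It was 1.45-fold lower, a log2 ratio of -0.54 (-0.60 to -0.47), at percentile 10.8 of tested genes. Its relatives stood apart from it. Enah (Mena), with a 6mer in its longest 3′-UTR, had 1625 and 1751 counts and a log2 ratio of -0.11 (-0.21 to -0.01). Evl had 885 counts (47.4 CPM) and 794 counts (42.5 CPM), a log2 ratio of 0.16 (0.02 to 0.30), and Vasp minus Evl was -0.69 (-0.84 to -0.54). Cttn, or cortactin, which stabilises Arp2/3 branches, had 3902 and 5032 counts and a log2 ratio of -0.37 (-0.43 to -0.31).

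The capping and severing genes lay near or slightly below 0. Capzb, the beta subunit of capping protein, had 6573 and 6611 counts, a log2 ratio of -0.01 (-0.06 to 0.04). Its alpha partners were Capza2, with 8297 and 9176 counts and -0.15 (-0.19 to -0.10), and Capza1, with 297 and 412 counts and -0.47 (-0.69 to -0.25). Gsn, or gelsolin, which cuts and then caps filaments when calcium rises, had 8495 and 9938 counts and a log2 ratio of -0.23 (-0.27 to -0.19). None of these 4 passed 0.5 in either direction.

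Filamin A and the non-muscle myosin II heavy chains among the cup genes, Myh9 and Myh10, were lower in the mimic library, and Myh10 most of all. Flna, filamin A, which links filaments into a gel, had 17734 and 24752 counts, a log2 ratio of -0.48 (-0.51 to -0.45). The alpha-actinins, which bundle filaments, were closer to 0, with Actn1 at -0.16 (-0.20 to -0.11) from 8470 and 9432 counts and Actn4 at 0.03 (-0.04 to 0.10) from 3620 and 3546 counts. Myh9, the heavy chain of non-muscle myosin IIA, had 17439 counts (934 CPM) in the mimic and 23831 counts (1277 CPM) with scramble, for a log2 ratio of -0.45 (-0.48 to -0.42).

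Myh10, the heavy chain of myosin IIB, had 1582 counts (84.7 CPM) and 3361 counts (180.0 CPM). It was 2.13-fold lower with mimic, a log2 ratio of -1.09 (-1.17 to -1.001), at percentile 2.54 of tested genes, and Myh9 minus Myh10 was 0.64 (0.55 to 0.73). Myo10, the motor of filopodia, which extends pseudopods around a target, had 2372 and 2366 counts, a log2 ratio of 0.00 (-0.08 to 0.09). The 3 myosin transcripts are 7433 to 8125 bases long, and with the median of their length group subtracted Myh10 was at -0.83, Myh9 at -0.20 and Myo10 at 0.26.

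The abundant tropomyosins, which coat filaments and keep severing factors and Arp2/3 off them, were nearly level. Tpm4 had 27092 counts (1451 CPM) in the mimic and 28705 counts (1538 CPM) with scramble, for a log2 ratio of -0.08 (-0.11 to -0.06). Tpm1 had 23151 counts (1240 CPM) and 24661 counts (1321 CPM), a log2 ratio of -0.09 (-0.12 to -0.07). Tpm1 minus Tpm4, at -0.01 (-0.04 to 0.03), was the only one of the 23 paralog differences whose interval included 0.

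The other tropomyosins lay to either side. Tpm2 had 4019 counts (215 CPM) in the mimic and 3089 counts (165 CPM) with scramble, for a log2 ratio of 0.38 (0.31 to 0.45). Tpm3 had only 25 counts (1.34 CPM) and 48 counts (2.57 CPM), 1.92-fold lower, with a log2 ratio of -0.94 and an interval from -1.70 to -0.22, and 62.4% of its transcript is shared with other genes. Differences from Tpm3 all passed 0.5 but were wide, at 0.85 (0.15 to 1.55) for Tpm1, 1.32 (0.62 to 2.02) for Tpm2 and, as Tpm3 minus Tpm4, -0.86 (-1.56 to -0.16).

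The ERM proteins, which anchor filaments to the plasma membrane, straddled 0. Ezr had 348 counts (18.6 CPM) in the mimic and 270 counts (14.5 CPM) in the scramble library, which gave a log2 ratio of 0.37 (0.13 to 0.60). Rdx had 4063 counts (218 CPM) and 4808 counts (258 CPM), a log2 ratio of -0.24 (-0.30 to -0.18). The difference of Ezr minus Rdx was 0.61 (0.37 to 0.85). Msn, the most counted of the ERM genes, had 7483 and 7413 counts and a log2 ratio of 0.01 (-0.03 to 0.06).

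Over all 23 paralog differences, 22 had an interval that excluded 0 and 9 of these were at least 0.5 in size. No such share was computed for pairs of unrelated genes, so these counts have no background beside them. Among the 9 were Actb minus Actg1 and the differences from Tpm3, which rest on genes with much shared sequence, as described below. The intervals are narrow where counts are high and wide for Tpm3, and they say nothing of the spread between cultures, which was not measured.

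Transcript length moved with the log2 ratio, in the cup genes as in all genes. Over tested genes the median log2 ratio went from 0.44 in the shortest 10% of transcripts, up to 1272 bases, to -0.25 in the longest 10%, from 6472 bases. The Spearman correlation of log2 ratio against transcript length was -0.574 across the 46 genes and -0.439 across 11763 tested genes, values that describe genes sharing the same 2 libraries. Cfl1, Arpc3 and Pfn1, the 3 highest, have transcripts of 1148, 899 and 861 bases and are the only cup genes in the shortest 10%. Nckap1 has 4597 bases, Wasf2 5642 and Myh10 7759.

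**Figure D3:**
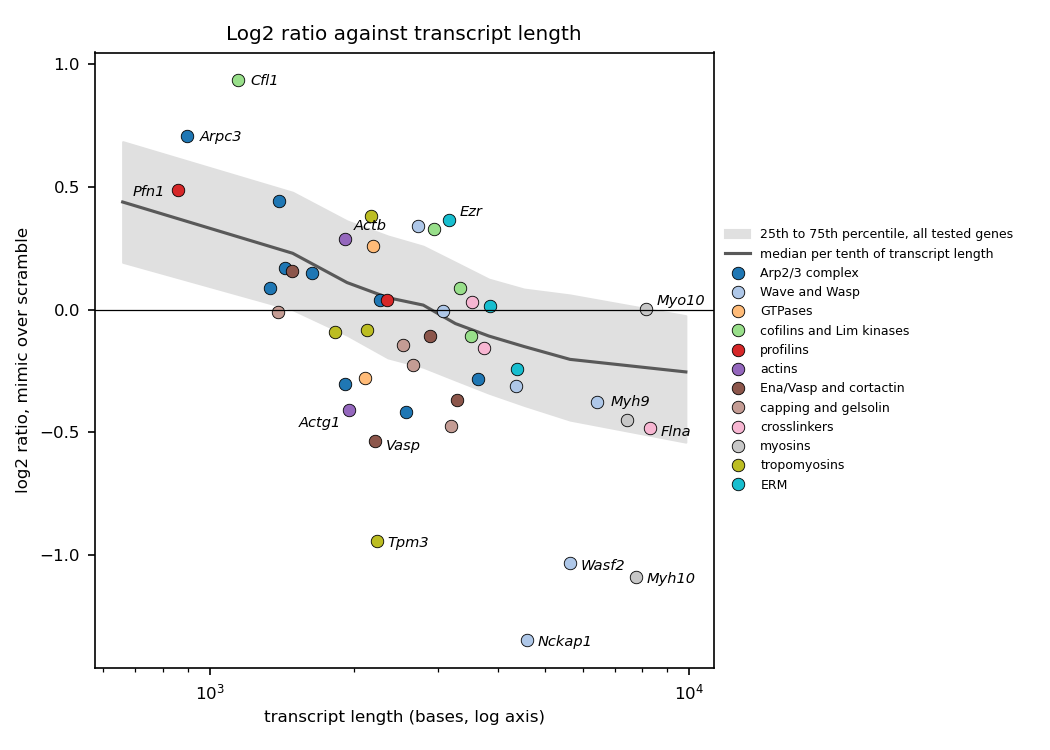
Log2 ratio of mimic to scramble against transcript length (log axis) for the 46 genes, coloured by role, over the median (line) and the 25th to 75th percentile (grey) of tested genes in each of 10 length groups. The line falls from 0.44 to -0.25, Pfn1 lies near it, and Nckap1, Wasf2, Myh10 and Tpm3 lie far below the grey band.

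When the tested genes were split by length into 10 equal groups and the median of its group was subtracted from each gene, 0 cup genes stayed at or above 0.5, against 11.7% of tested genes. Cfl1 came to 0.49, Arpc3 to 0.27 and Pfn1 to 0.05, and the difference between the cofilins came to 0.18. On the lower side 6 genes (13%) were at or below -0.5, against 9.96% of tested genes. Nckap1 was then at -1.19, Tpm3 at -0.99, Wasf2 and Myh10 each at -0.83, Vasp at -0.58 and, newly past the threshold, Actg1 at -0.52. Flna, at -0.23, and Myh9, at -0.20, came closer to 0, and Myo10 went from 0.00 to 0.26. The median of the 46 became -0.11, with 15 above 0 and 31 below, and 7 genes changed sign, namely Arpc1a, Arpc2, Arpc4, Arpc5l, Abi1, Pfn2 and Evl. A smooth fit of the log2 ratio on length, subtracted in the same way, left Cfl1 alone on the higher side at 0.57, against 11.1% of tested genes, and 6 genes on the lower side, against 10.9%. The part of transcript length in these differences was not tested.

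Near-identical copies of a gene can affect how its reads were counted. Reads that aligned to more than one place were kept off genes and made up 39.8% of all entries in the mimic table and 35.6% in the scramble table. Each transcript was cut into all windows of 50 bases, and the share of windows also present on either strand of a transcript of another annotated gene was taken. The window of 50 bases is a choice, since the read length is not known. Copies elsewhere and annotated genes that overlap at the same place were not told apart. The share is therefore not a direct measure of lost reads. It was 77.4% for Capza1, with 4 other genes of which 3 were pseudogenes, 62.4% for Tpm3, with 5 and 4, and 56.7% for Actg1, with 22 and 12. Next came Actr3 at 49.8%, Rhoa at 25.1%, Arpc1b at 23.9%, Cyfip1 at 21.4%, Cfl1 at 20.5%, Tpm4 at 16.1% and Actb at 14.2%. Nckap1, Wasf2, Vasp, Arpc3 and Pfn1 shared no window, and Myh10 shared 0.947%.

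Of the 4 cup genes with the lowest level per length, 3 were those with the highest share of such windows. Ezr, the remaining one, shared 0.193%. The levels and log2 ratios of Capza1, Tpm3 and Actg1 are therefore uncertain, and so are the paralog differences that use them. Actr3, with 49.8% of windows shared, lies just under the limit of 50%, and its level and log2 ratio carry a like doubt. Without Capza1, Tpm3 and Actg1 the median log2 ratio of the other 43 was -0.01, and 4 genes, Nckap1, Myh10, Wasf2 and Vasp, remained at or below -0.5.

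**Figure D4:**
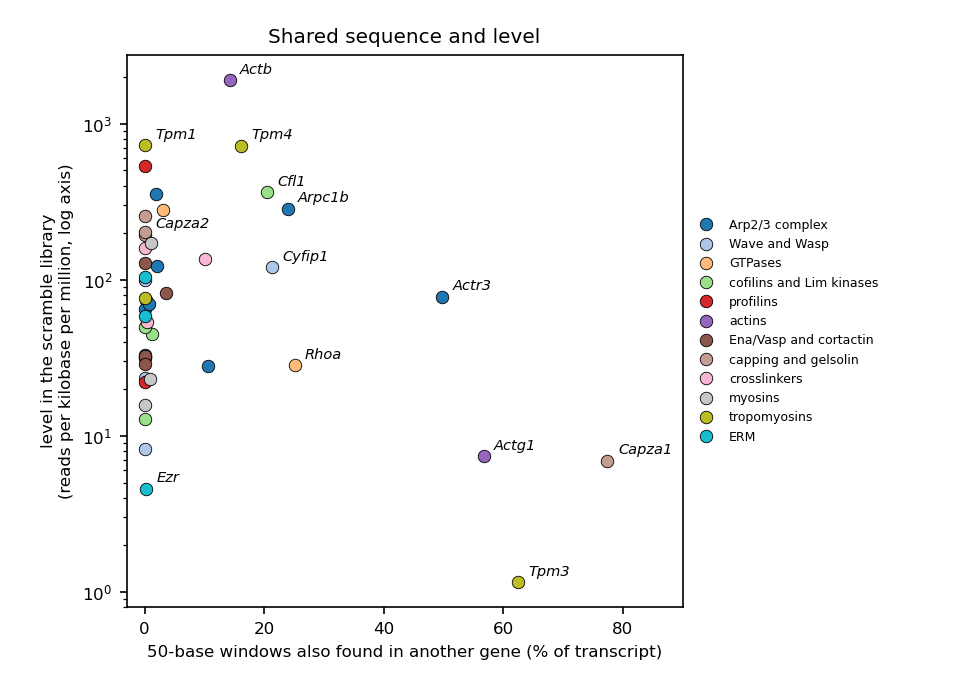
Level per length in the scramble library (log axis) against the share of 50-base windows of a transcript that also occur in another gene, for the 46 genes coloured by role. Capza1, Tpm3 and Actg1 stand at the lower right, with over 50% of windows shared and levels of 6.91, 1.15 and 7.35 RPKM, while Ezr is low with 0.193% shared.

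The rest of the actin machinery, in 6 lists of other genes, gave 6 of 102 tested genes at or above 0.5 and 17 at or below -0.5, with a median log2 ratio of -0.20. Over all tested genes the shares were 14.9% higher and 12.2% lower, which are the shares to set beside the counts of each list below. One gene, Vcl, stands in 2 of these lists. With the median of the length group subtracted, the median of the 102 was -0.12. Then 5 genes were at or above 0.5 and 18 at or below -0.5, against 11.7% and 9.96% of tested genes. In the order in which the lists follow, the medians so adjusted were 0.19, 0.24, -0.16, -0.03, -0.11 and -0.55. The other Arp2/3 activators and Wave partners had a median of 0.24, with 2 of 15 higher and 1 lower. Among them Whamm, an Arp2/3 activator of internal membranes, had 238 and 134 counts and a log2 ratio of 0.83, and Brk1, the smallest Wave subunit, had 1300 and 958 counts and 0.44. With the median of its length group subtracted, Brk1 was at 0.0024. Abi2, the other Abi adaptor of the Wave complex, was named after its values were seen, with 2312 and 2777 counts and a log2 ratio of -0.27 (-0.35 to -0.18). At the other end were Gmfb, which takes branches apart, at -0.65 from 8528 and 13399 counts, and Wipf1, which binds Wasp proteins, at -0.44 from 1976 and 2686 counts.

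Monomer-binding and filament-assembly genes had a median of 0.12, with 2 of 16 higher and 4 lower. The thymosins that hold actin monomers in reserve were the highest, Tmsb10 at 0.89 from 2406 and 1298 counts and Tmsb4x at 0.79 from 2705 and 1569 counts. With the median of the length group subtracted, Tmsb10 came to 0.45 and Tmsb4x to 0.35, below Spire1 of the same list at 0.65. The lowest were the formins Diaph3, at -0.98 from 421 and 832 counts, and Daam2, at -0.79 from 1365 and 2356 counts. The other severing, capping and turnover factors had a median of -0.21, with 0 of 18 higher and 5 lower. They ran from Lmod1, a filament nucleator of muscle, at -1.27 (172 and 415 counts) and Ssh1, a phosphatase that reactivates cofilin, at -0.96 (161 and 313 counts) to the barbed-end capper Capg at 0.38 (5438 and 4173 counts) and Svil at 0.27 (1241 and 1031 counts).

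The other crosslinkers and adhesion linkers had a median of -0.15, with 1 of 19 higher and 2 lower. Vcl, vinculin, was at -0.96 from 3567 and 6928 counts and Zyx, zyxin, which recruits Ena/Vasp proteins, at -0.67 from 8004 and 12715 counts, whereas Pdlim7 was at 0.20 from 1995 and 1742 counts and Pls3 at 0.10 from 3088 and 2886 counts. The other myosins and light chains had a median of -0.29, with 0 of 20 higher and 2 lower, and ran from Ppp1r12a, the targeting subunit of myosin phosphatase, at -0.93 (490 and 933 counts) and its catalytic partner Ppp1cb at -0.53 (3304 and 4768 counts) to the light chains Myl6 at 0.21 (1788 and 1549 counts) and Myl12b at 0.39 (2585 and 1968 counts).

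Genes of the serum response factor and smooth muscle programme had the lowest median, -0.42, with 1 of 15 higher and 4 lower, against 14.9% and 12.2% of all tested genes. With the median of the length group subtracted, their median was -0.55 and 9 of 15 were lower, against 9.96% of tested genes. Their ends were Tagln2 at 0.72 (6907 and 4180 counts) and Tagln at -0.12 (6252 and 6778 counts), and Vcl and Mkl1, a coactivator of serum response factor that actin monomers hold back, at -0.69 (2166 and 3484 counts).

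**Figure D5:**
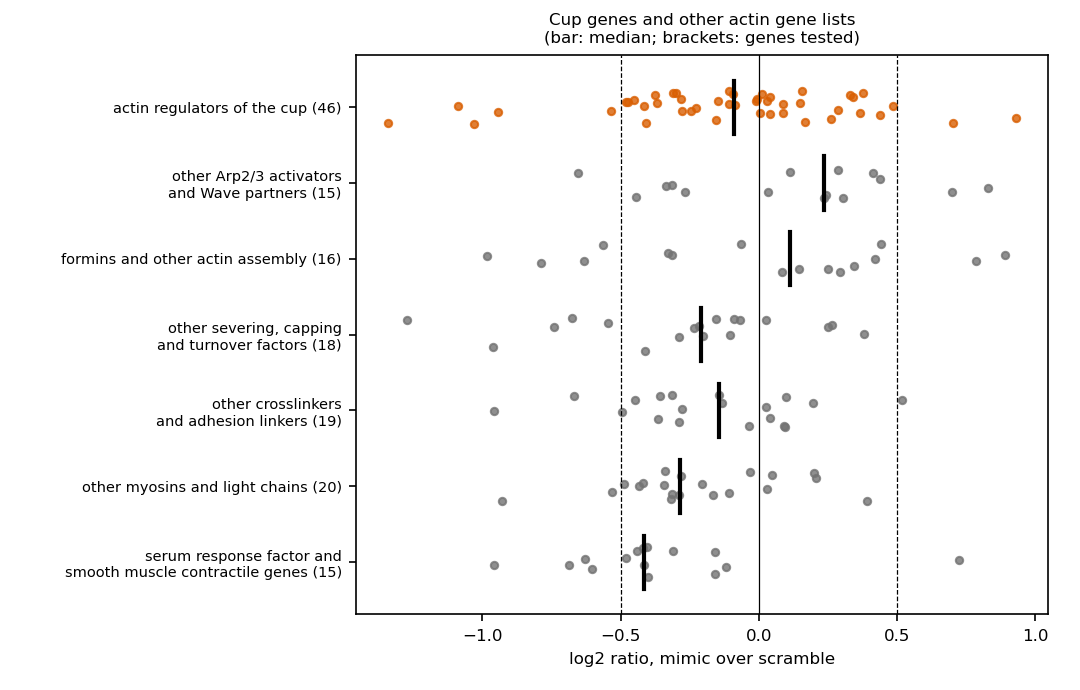
Log2 ratio of mimic to scramble for the 46 cup genes (orange) and the tested genes of 6 other actin lists (grey), 1 dot per gene, with a bar at each median and dashed lines at -0.5 and 0.5. The medians run from -0.42 to 0.24 and that of the cup genes is -0.09.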

How the data were processed

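For each Ago2 IP library the authors deposited a table of raw counts by gene symbol that ends in the summary rows of HTSeq. The submitters' processing notes name CASAVA 1.8.2, TopHat2 2.0.8b, HTSeq and mm9, and the annotation, strand setting and read length are not given in the sources used here. Summary rows were left out of library sizes. Reads outside genes were 6.84% and 7.89% of entries (mimic and scramble), ambiguous reads 0.653% and 0.585%, and non-unique alignments 39.8% and 35.6%.

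A gene was tested if its counts in the libraries summed to 20 or more, and counts were scaled with TMM factors of edgeR 4.0.16 in R 4.3.3 (1.0026 and 0.9974). Log2 ratios carry 95% intervals that were derived from the Clopper-Pearson (exact) interval of the share of a gene's reads in the mimic library, and paralog differences carry intervals of the log odds ratio. With 1 library per condition no test of edgeR could be fitted. The interval code was tested on simulated data. Python 3.11.15 with numpy 2.4.6, scipy 1.17.1, pandas 2.3.3 and matplotlib 3.10.9 was used.

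GENCODE M21 (GRCm38) was matched by symbol and gave a coding transcript for 11764 tested genes (96.5%) and all 46 cup genes. No coordinate of the mm9 files was used. Older symbols were matched, so Brk1 is 6720456B07Rik and Diaph3 is Diap3 in the tables. The miRNA sequence is from RefSeq.

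The 46 genes and the lists were chosen with earlier results of these data known. Full values are given for cup genes past a log2 ratio of 0.5, the 3 most counted, any with a 7mer-m8 match and paralogs differing by at least 0.5, and from each other list for the 2 highest and 2 lowest genes with at least 200 counts. Profilins, planned with the cofilins and Lim kinases as 1 role, are shown apart, and the 6 genes together had a log2 ratio of 0.55. A list of other genes and a sequence match are not reported here.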

Additional observations from a re-analysis of the deposited data

Results flagged for a closer look

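A pair of summary rows of the count tables, which enter no comparison above, held larger shares in the mimic library than in the scramble library, whereas reads outside genes held a smaller share, 6.84% against 7.89%. Alignments to more than one place were 39.8% of all entries in the mimic table and 35.6% in the scramble table. Reads overlapping more than one gene were 0.653% and 0.585%. Of the cup genes, Capza1, Tpm3 and Actg1 had more than 50% of their transcript in windows shared with other genes, and how the non-unique alignments divide among genes was not analysed here.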

How the results depend on the processing

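Of 353 values recomputed under an alternative, 263 kept their call or moved by less than their counting interval, 90 moved by more, and 0 called values changed sign. DESeq2 1.42.0 size factors, total counts and upper quartile scaling changed no cup gene's log2 ratio by more than 0.018, and under upper quartile scaling the summed ratio of the actins was 0.30 and that of the tropomyosins -0.040. The 2 higher cup genes became 3 under upper quartile scaling, where Pfn1 reached 0.504, 0 with the median of the length group subtracted, 1 (Cfl1, 0.57) with a quadratic fit on log length subtracted and 0 at a log2 ratio of 1. The 5 lower ones became 3 at a log2 ratio of 1 and 3 when the whole counting interval had to pass 0.5. The median became -0.12 with the length fit and -0.0089 for the genes with under 50% of windows shared, an alternative chosen after seeing the data. Over genes with at least 200 counts the share of reads was 1.82% in the mimic and 1.86% in the scramble library. Role sums without their most counted gene were 0.060 for Arp2/3, -0.81 for Wave and Wasp, 0.26 for the GTPases, 0.094 for cofilins and Lim kinases, 0.039 for profilins, -0.41 for actins, -0.24 for Ena/Vasp and cortactin, -0.10 for capping and gelsolin, -0.10 for crosslinkers, -0.54 for myosins, -0.032 for tropomyosins and -0.20 for ERM, so the sums of the GTPases and the actins changed sign. The seed search gave 1 cup gene for the 6mer in 3′-UTRs, 3 for the 6mer in coding regions and 0 for the 8mer in coding regions. No paired analysis was possible because each condition has 1 library, and for the same reason no replicate could be left out. The depth limits Tpm3 most, with 25 and 48 counts.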
